A study of Caenorhabditis elegans with 2 samples.

Results

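Chromatin immunoprecipitation and sequencing mapped where the T23F11.4 protein sits near 7 genes of cell division in late embryos of Caenorhabditis elegans. The genes were lin-35, lin-54, sas-5, spd-5, mdf-2, mcm-10 and pcn-1, 7 of the 19973 nuclear protein-coding genes in the annotation. They were picked by name from genes already known to have a peak of this experiment near a start, so the presence and strength of those peaks is given as a description, with no test. There was 1 group of 2 samples, biological replicates 1 and 2 by their labels, and no other condition to compare. All worms carried unc-119(tm4063) and the integrated transgene wgIs709, which holds T23F11.4 with a C-terminal TY1, EGFP and 3xFLAG tag together with a working unc-119 copy (strain OP709). Whole late embryos of both sexes, synchronised by egg bleaching and labelled as 4 hours old, were precipitated with an anti-GFP antibody, which reads the tagged protein only. RefSeq annotates T23F11.4 as a protein with a C2H2-type domain, the common form of zinc finger, and the labels do not name the promoter that drives the transgene. Whole embryos mix every tissue, so the cells that gave a peak cannot be told apart.

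The cell cycle of animals is run by waves of transcription and by assembly of large machines. In the worm, LIN-35, the homologue of the retinoblastoma protein, joins an E2F factor and the MuvB proteins in the DREAM complex, which binds promoters of cell cycle genes and keeps them low in cells that do not divide. LIN-54 is the MuvB subunit that touches DNA, at a short element called the cell cycle genes homology region. SAS-5 builds centrioles, SPD-5 forms the scaffold of the material around them, MDF-2 (the worm Mad2) holds back anaphase until chromosomes are attached, MCM-10 helps to start replication, and PCN-1 (PCNA) clamps polymerases to DNA. For many worm genes the annotated start is the site where a spliced leader is joined, which lies downstream of the point where transcription begins.

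The 4 deposited lists of regions were used together. The optimal set held 635 nuclear peaks, all of them also regions of the pooled list called on both replicates together. The pooled list held 29999 nuclear regions, the replicate 1 list 29994 and the replicate 2 list 25794, and these 3 lists include background regions. The number of reads behind each list is unknown. Signal is the authors' own value for a region and has a different scale in each list, with medians of 47.1 (pooled), 20.5 (replicate 1) and 33.8 (replicate 2). A level is therefore given as signal, as rank within its list, or as a ratio to the list's median. The weakest nuclear optimal peak had a signal of 115.7.

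Each of the 7 genes had 1 optimal summit within 1000 bp of a transcript start. Over all coding genes this was so for 467 of 19973 (2.34%), and nothing is read from that difference, since the genes were chosen by these peaks. Pooled signals ran from 130.8 at lin-54 to 180.7 at lin-35, and ranks from 462 to 213 of 635. The 7 peaks thus lay in the middle of the optimal set, with a median signal of 149.1 beside 146.6 for all optimal peaks and 146 for the 362 optimal peaks within 1000 bp of a coding start. Because the optimal peaks are pooled regions, a pooled region of any signal had to lie near 7 of 7, beside 51.7% of all coding genes. Their −log10 q-value was the highest that the authors' caller gave in the optimal set (2.29) for 7 of 7, as for 273 of those 362 peaks (75.4%).

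**Figure D1:**
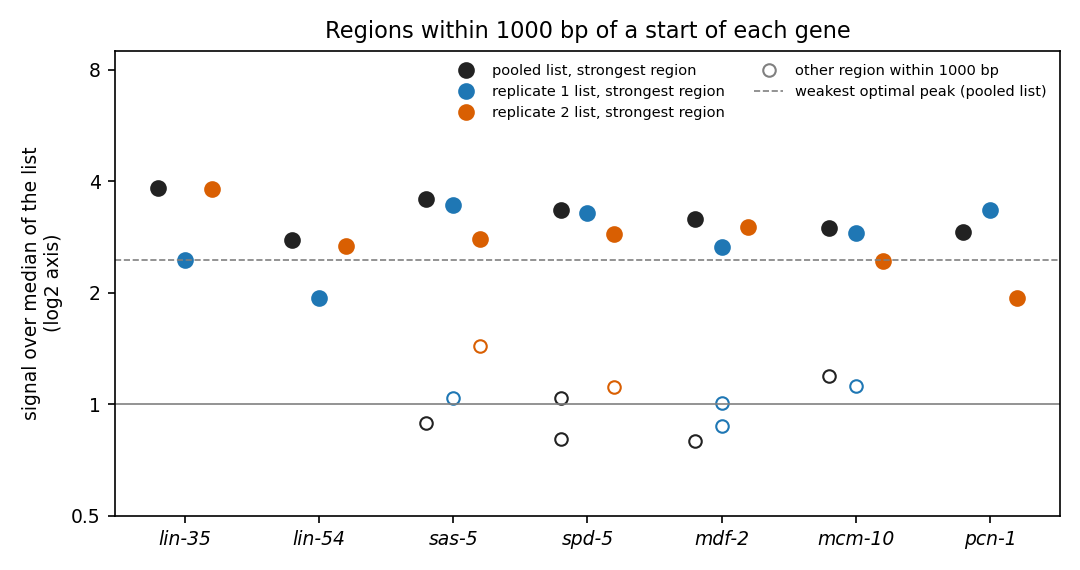
Signal of every region with a summit within 1000 bp of a start of each gene, divided by the median of its own list, on a log2 axis. Filled points are the strongest region in the pooled (black), replicate 1 (blue) and replicate 2 (orange) lists, and open points are the other regions. The strongest regions lie between 1.93 and 3.83 times the list median, and every other region lies at or below 1.44 times it.

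The genes of the DREAM complex came first in the order of roles. At lin-35 (WBGene00003020, plus strand) the optimal peak, on chromosome I from 5807269 to 5807712, had a pooled signal of 180.7. Its signal was 50.1 (rank 495) in replicate 1 and 128.9 (rank 178) in replicate 2. Relative to the list medians this was 2.45 times in replicate 1 and 3.82 times in replicate 2, a log2 mean of 1.61 ± 0.45 (SD, n = 2). The summit was intergenic, 218 bp upstream of the only lin-35 start, and both replicates put it within 7 bp of each other. The region was also 200 bp upstream of vps-51, which runs the other way and encodes a subunit of a complex that tethers vesicles to the Golgi. The start of vps-51 was thus the nearer one, and the peak cannot be given to either gene.

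The peak at lin-54 (WBGene00003037, plus strand), chrIV:13240417-13240860, was the weakest of the 7. Its pooled signal was 130.8, with 39.4 (rank 1205) in replicate 1 and 90.4 (rank 391) in replicate 2, a log2 mean over the list medians of 1.18 ± 0.34 (SD, n = 2). In replicate 1 it was not among the 635 strongest regions, and its −log10 q-value there was 1.06, below the 1.49 that was the highest of that list. Its summit lay 405 bp upstream of lin-54 but 12 bp inside rpl-12, in an exon outside the coding sequence. rpl-12 encodes a protein of the large ribosomal subunit and is transcribed away from lin-54. No other region of any of the 4 lists had its summit within 1000 bp of a lin-54 start. The part of the 300 bp around the summit that carries no exon is shown, without the summit itself, because it is the shared upstream sequence of both genes and holds letters of cell cycle elements. It is the plus strand of chrIV:13240652-13240788 in ce11, starts just upstream of rpl-12, and has in capitals the match to TTTGAA (as its reverse complement) and the match to GCGCGAAA.

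lin-54: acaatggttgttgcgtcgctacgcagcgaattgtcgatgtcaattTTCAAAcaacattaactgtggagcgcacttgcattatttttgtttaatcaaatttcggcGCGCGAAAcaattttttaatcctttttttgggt

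At the centrosome genes the replicate levels lay within 0.3 of each other on the log2 scale, as they also did at mdf-2 and mcm-10. At sas-5 (WBGene00009385, plus strand) the optimal peak, chrV:11610459-11610902, had a pooled signal of 168.8. The signal was 70.7 (rank 203) in replicate 1 and 94.6 (rank 346) in replicate 2, a log2 mean over the list medians of 1.64 ± 0.21 (SD, n = 2). The summit was 56 bp upstream of the first sas-5 start, the shortest distance among the 7 genes, and the replicate summits were 4 bp apart. The only other coding start within 1000 bp was that of piit-1, a gene with a Kunitz inhibitor domain, 532 bp away on the other strand. The ncRNA gene F35B12.11 had its start 547 bp away. A weaker pooled region (signal 42, rank 20245) lay 43 bp downstream of the innermost sas-5 start, below the list median. Replicate 2 held a region 52 bp downstream of that start with a signal of 48.4 (rank 3429), 1.44 times its list median.

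At spd-5 (WBGene00004955, minus strand) the optimal peak, on chromosome I from 5176232 to 5176675, had a pooled signal of 157.9. The signal was 67.1 (rank 236) in replicate 1 and 97.1 (rank 318) in replicate 2, a log2 mean over the list medians of 1.62 ± 0.13 (SD, n = 2). These values, 3.28 and 2.88 times the list medians, differed less between replicates than those of lin-35. The summit was intronic, 200 bp downstream of the outer spd-5 start, and its nearest start was that of spd-5. npp-6, which encodes a nuclear pore protein of the NUP160 type, starts 375 bp away on the other strand. Downstream of the inner spd-5 start the pooled list held 2 further regions, with signals of 49 (rank 13412) at 30 bp and 37.9 (rank 25487) at 697 bp, close to or below the list median.

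The spindle checkpoint gene mdf-2 differed in the place of its peak. For mdf-2 (WBGene00003161, minus strand) the optimal peak, chrIV:2639679-2640122, had a pooled signal of 149.1, with 54.4 (rank 382) in replicate 1 and 101.5 (rank 288) in replicate 2, a log2 mean over the list medians of 1.5 ± 0.13 (SD, n = 2). The summit lay inside mdf-2, 870 bp downstream of its innermost start, in an exon outside the coding sequence. It was 21 bp upstream of the glutamate tRNA gene Y69A2AR.t2 (chrIV:2639809-2639880), which occupies 72 bp on the same strand, and 104 bp from the start of the ncRNA gene Y69A2AR.41. The sequence of this tRNA gene occurs 1 time in the nuclear genome. At the outer starts of mdf-2 itself the pooled list held 1 region, 84 bp upstream, with a signal of 37.5 (rank 26058), or 0.796 times the list median. Replicate 1 held 1 region there (signal 20.6, rank 14706), and replicate 2 held no region within 1000 bp of a start other than the peak at the tRNA gene. The regions at the outer starts were thus near or below the list medians. The 30 bases from the summit into the tRNA gene are shown on the minus strand, chrIV:2639872-2639901 in ce11, with the first bases of the tRNA gene in capitals.

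mdf-2: ctcgcgccctcagtttttggaTCCTATGTG

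Both replication genes had a peak upstream of the start. At mcm-10 (WBGene00012935, plus strand) the optimal peak, chrIII:11317061-11317504, had a pooled signal of 140.8, with 59.4 (rank 311) in replicate 1 and 82.1 (rank 515) in replicate 2. The log2 mean over the list medians was 1.41 ± 0.18 (SD, n = 2). The summit was 287 bp upstream of mcm-10 and in an intron of teg-1, a GYF domain gene on the other strand whose nearest start was 228 bp away. The replicate summits were 87 bp apart, the widest gap among the 7 genes, beside a median of 25 bp for the 362 optimal peaks near coding starts. The replicate 2 summit lay 198 bp upstream of mcm-10, and for that summit mcm-10 was the nearer coding gene. A weaker pooled region closer to mcm-10 (88 bp upstream) had a signal of 56.2 (rank 8645), and replicate 1 held a like one 81 bp upstream (signal 22.9, rank 10713).

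At pcn-1 (WBGene00003955, minus strand) the optimal peak, chrIV:4049603-4050046, had a pooled signal of 137.7 and the widest spread between replicates. The signal was 68.7 (rank 221) in replicate 1 and 65.2 (rank 1010) in replicate 2, or 3.35 and 1.93 times the list medians, a log2 mean of 1.35 ± 0.56 (SD, n = 2). In replicate 2 it was not among the 635 strongest regions, and its −log10 q-value there was 1.11, below that list's highest of 1.67. The summit was intergenic, 377 bp upstream of the only pcn-1 start, with no other region within 1000 bp in any list. The hedgehog-related gene wrt-5 lies upstream on the same strand, with an internal start 749 bp away. The 300 bp around both replication summits carry no exon and are shown whole, on the plus strand in ce11, chrIII:11317133-11317432 for mcm-10 and chrIV:4049675-4049974 for pcn-1, with matches to TTTGAA on either strand in capitals.

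mcm-10: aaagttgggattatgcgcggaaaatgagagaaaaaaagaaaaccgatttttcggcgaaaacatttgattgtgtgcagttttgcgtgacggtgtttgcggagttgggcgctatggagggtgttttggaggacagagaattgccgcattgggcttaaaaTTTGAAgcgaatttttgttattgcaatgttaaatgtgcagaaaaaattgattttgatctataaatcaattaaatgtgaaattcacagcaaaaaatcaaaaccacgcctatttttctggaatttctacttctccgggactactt
pcn-1: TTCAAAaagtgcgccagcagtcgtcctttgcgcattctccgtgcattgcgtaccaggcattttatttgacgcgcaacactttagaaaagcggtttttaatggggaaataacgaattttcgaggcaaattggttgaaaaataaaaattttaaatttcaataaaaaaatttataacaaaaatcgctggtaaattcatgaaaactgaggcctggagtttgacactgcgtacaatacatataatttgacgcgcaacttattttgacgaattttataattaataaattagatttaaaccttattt

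**Figure D2:**
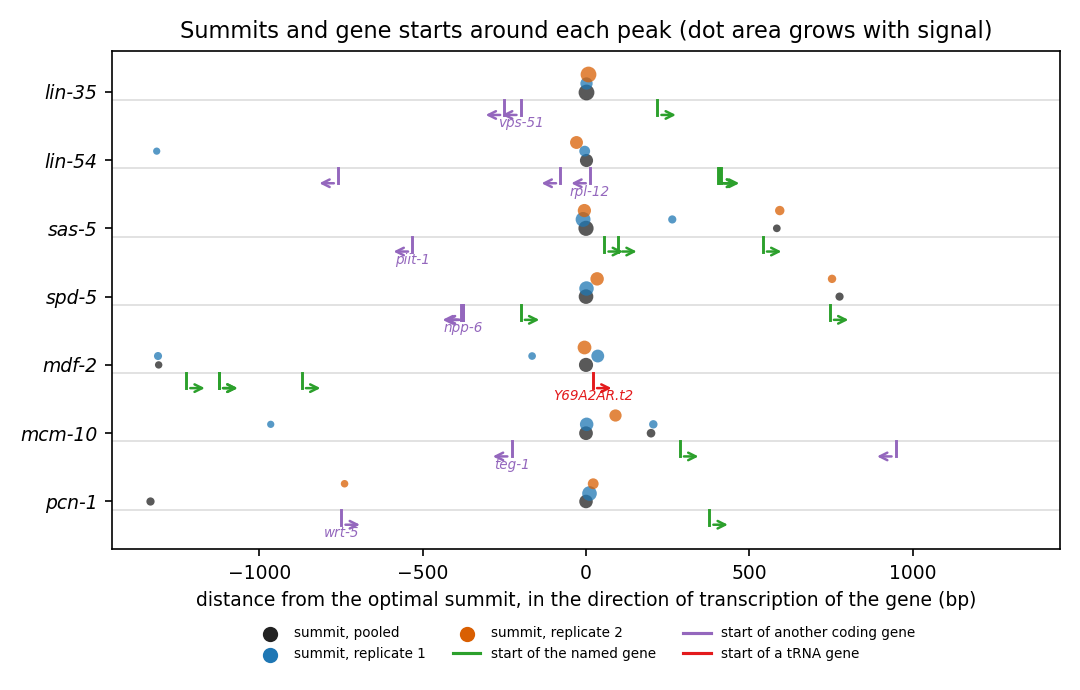
Summits of regions (dots, with area growing with the signal over the list median) and starts of coding and tRNA genes (ticks with arrows for direction) around each optimal summit. Positions are in bp along the direction of transcription of the named gene. Starts of ncRNA genes and the pooled region 697 bp downstream of the inner spd-5 start are not shown. Starts of other coding genes are shown out to 1000 bp. The strongest summits of the 2 replicates lie within 87 bp of each other at every gene, and the mdf-2 summit sits beside the tRNA gene Y69A2AR.t2 and 870 bp past the nearest mdf-2 start.

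Position and neighbours were then compared with other peaks. A second coding gene had a start within 1000 bp of 6 of the 7 summits, and for 5 of the 7 that gene was on the opposite strand. Among the 362 optimal peaks near a coding start, 117 (32.3%) had a second coding gene and 100 (27.6%) had starts on both strands. These are shares of peaks, whereas the 7 were picked as genes. The 362 peaks form 487 combinations of a coding gene and a summit, and a shared peak can be picked through any of its genes. Counted by such combinations, both shares would be higher, so nothing is read from the difference. At the optimal summit a coding gene other than the named one was the nearer for lin-35 (vps-51), lin-54 (rpl-12) and mcm-10 (teg-1). Thus 4 of the 7 genes were the coding gene nearest to their own optimal summit. Over all coding genes with an optimal summit within 1000 bp it was 344 of 467. The 4 include mdf-2, whose start was farther from the summit than those of both RNA genes named above. For mcm-10 the order was reversed at the replicate 2 summit, which lay 198 bp from the mcm-10 start. A tRNA, snoRNA, snRNA, microRNA or rRNA gene lay within 500 bp of 1 of the 7 summits, that at mdf-2, beside 84 of the 362 (23.2%). The summit was upstream of the start for 5 of the 7 genes, and for 399 of the 487 combinations of a coding gene and an optimal summit (81.9%).

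Replicate support was counted next. With each replicate list limited to its 635 strongest regions, 6 of the 7 genes had a summit within 1000 bp of a start in replicate 1, beside 2.18% of all coding genes. In replicate 2 it was also 6 of 7, beside 2.28%, and in both it was 5 of 7, beside 1.42%. Nothing is read from these shares, since both replicates fed the optimal set. By peaks, 5 of the 7 were overlapped (1 bp or more) in both limited lists. The count over the 362 optimal peaks near a coding start was 225 (62.2%), so the share of the 7 was near that background. The exceptions were lin-54, missing from replicate 1, and pcn-1, missing from replicate 2. The log2 signal over the list median was higher in replicate 2 for lin-35 (by 0.64), lin-54 (0.48) and mdf-2 (0.18). It was lower in replicate 2 for sas-5 (-0.3), spd-5 (-0.19), mcm-10 (-0.25) and pcn-1 (-0.8). Over the 362 peaks this difference had a median of 0.07 and an SD of 0.43. The values of lin-35 and pcn-1 lay more than 1 SD from that median, and that of lin-54 lay just within 1 SD of it. The order of the 7 genes differed between replicates. lin-35 stood first in the pooled list and in replicate 2, but in replicate 1 sas-5, pcn-1 and spd-5 were the strongest and lin-35 was above lin-54 alone.

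**Figure D3:**
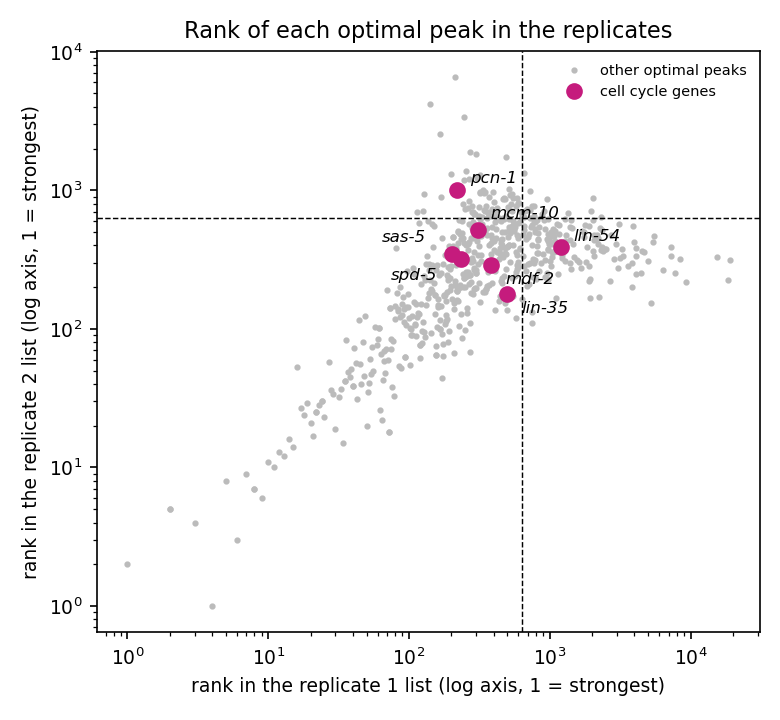
Rank of each of the 635 optimal peaks in the replicate 1 list (x) and the replicate 2 list (y), both on log axes with 1 as the strongest, where a peak takes its strongest overlapping region. Dashed lines mark rank 635. Of the 7 named peaks (pink), 5 lie inside both lines, lin-54 lies beyond the replicate 1 line at rank 1205, and pcn-1 beyond the replicate 2 line at rank 1010.

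The wider machinery of cell division was described from 5 lists of 120 genes, of which 119 were matched in the annotation (rfc-5 was not). An optimal summit lay within 1000 bp of a start of 8 of the 119 genes (6.72%), beside 2.34% of all coding genes. These were the 7 named genes and knl-3, a kinetochore gene, and without the 7 the count was 1 of 112 (0.893%). By list it was 2 of 8 DREAM and MuvB genes, 2 of 16 centriole and centrosome genes, 2 of 28 checkpoint and kinetochore genes, 2 of 38 replication genes and 0 of 29 cyclins, cyclin-dependent kinases and their regulators. The lists were written with earlier results of these data known, so no share among them is tested.

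The knl-3 peak on chromosome V had a pooled signal of 131.7 (rank 451), with 49.6 (rank 511) in replicate 1 and 89.4 (rank 403) in replicate 2. Its summit was 461 bp upstream of knl-3 and 181 bp upstream of T10B5.3, which runs the other way and is annotated as a protein with a domain of the small-subunit processome. It thus had the layout of the lin-35 peak, with the named gene as the farther of 2 opposed starts.

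Regions of any signal were frequent near these genes. A pooled region lay within 1000 bp of a start of 92 of the 119 genes (77.3%), beside 51.7% of all coding genes, and of 85 of the 112 without the named 7 (75.9%). Their strength was ordinary. The median signal of the strongest region was 52 over those 85 genes and 51.4 over the 10333 coding genes with a region. For the cyclin list 17 of 29 genes had a region, and for the DREAM list 7 of 8.

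The E2F and DP genes of the DREAM complex had weak regions, with signals of 45 at efl-1 (rank 17076) and 43.8 at dpl-1 (rank 18293), both under the list median. lin-9, a MuvB gene, had 52 (rank 11192), and lin-37, another, had no region. lin-53, which encodes a histone-binding protein shared with other chromatin complexes, had the strongest region without an optimal peak in that list, with a signal of 99.6 (rank 982; 30.8 in replicate 1 and 56.2 in replicate 2).

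Among the centrosome genes the next after sas-5 and spd-5 were the gamma-tubulin gene tbg-1 (signal 75.1, rank 2868), sas-7 (67.5, rank 4409) and the centriole gene sas-4 (58.6, rank 7495). In the checkpoint and kinetochore list they were cls-2, a microtubule regulator of the CLASP family (107.7, rank 773), czw-1, a subunit of the RZZ complex (101.4, rank 931), and hcp-4, a centromere protein of the CENP-C type (72.5, rank 3280). In the replication list they were ctf-4 (87.3, rank 1538), the clamp loader gene rfc-4 (86.3, rank 1622) and evl-18, a homologue of CDC45 (83.1, rank 1905). None of these reached the weakest optimal peak.

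Among cyclins and regulators the strongest regions were at the cyclin E gene cye-1 (99.6, rank 983), the kinase inhibitor gene cki-1 (73.4, rank 3117) and fzr-1, an activator of the anaphase-promoting complex (70.9, rank 3597). cye-1 also marks the edge of the 1000 bp rule. The optimal summit nearest to it lay 1008 bp away, just outside, and that peak was stronger than any of the 7, with a signal of 420.4 (rank 22; 137.2 in replicate 1 and 272.2 in replicate 2). In replicate 1 the summit of this region was inside the 1000 bp. The optimal summit fell inside the cysteine tRNA gene C37A2.t1, 11 bp from its start. The farthest summit inside the rule was that of mdf-2 at 870 bp, which also sits at a tRNA gene.

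**Figure D4:**
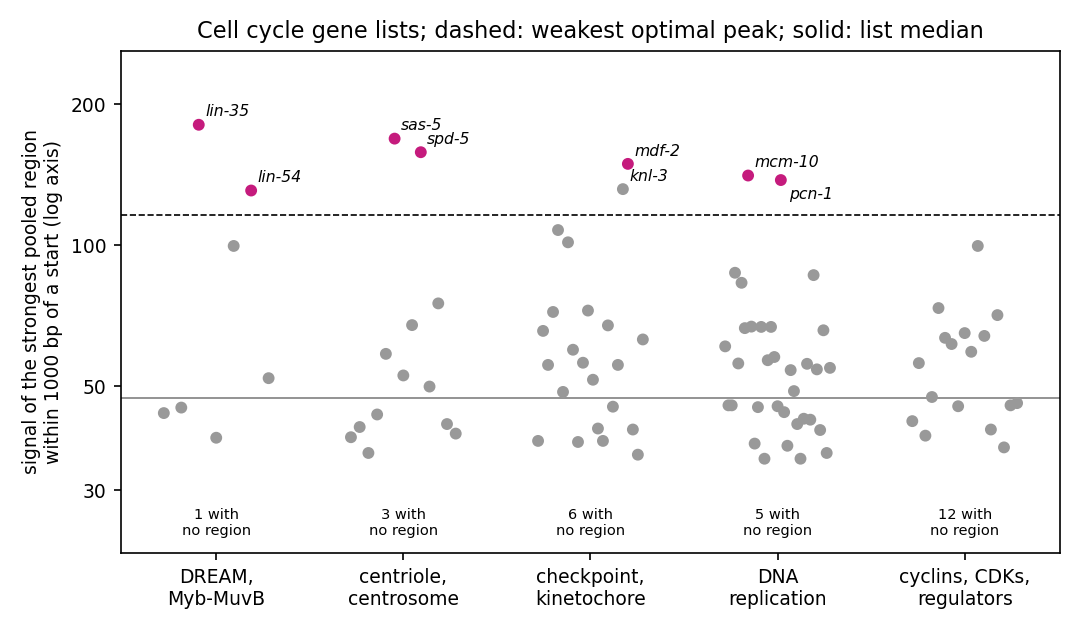
Signal of the strongest pooled region within 1000 bp of a start for each gene of the 5 lists (log axis), with the number of genes that had no region below. The dashed line is the weakest optimal peak (115.7) and the solid line the median of the pooled list (47.1). The 7 named genes (pink) and knl-3 lie above the dashed line and all other listed genes below it.

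The sequence under the peaks was searched for 4 short elements in 300 bp centred on the summit, on both strands. TTTGAA and TTCGAA are forms of the element that LIN-54 recognises, and TTCGAA reads the same on both strands. GCGGGAAA and GCGCGAAA are forms of the E2F element. TTTGAA was found at 5 of the 7 summits (lin-54, sas-5, spd-5, mcm-10 and pcn-1), beside 41.3% of all 635 optimal windows and 50.3% of the 29163 windows of other pooled regions. This element is thus frequent in any window of that length. TTCGAA was found at spd-5 alone (17.2% of optimal and 14.9% of other windows). GCGCGAAA was found at lin-54 alone (2.52% and 1.64%), and its first base was 117 bp from the summit. GCGGGAAA was at none of the 7 (2.99% and 1.93%). The nearest match to an optimal summit was the TTTGAA 7 bp from that of mcm-10, where the replicate summits lay 87 bp apart. The match at pcn-1 began at the edge of the window, 150 bp away. No matches overlapped each other in the 7 windows, and a match says only that these letters are present.

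The 7 windows had a GC content of 32.7% (pcn-1) to 46% (mdf-2), with a median of 38%. The median was 44.5% for the 362 optimal peaks near a coding start, 45.3% for all optimal windows and 40% for other pooled regions. The highest of the 7 was the window with the tRNA gene. For each gene, the most similar pair of replicate levels was looked up among coding genes with their own optimal peak and no region shared with it. Likeness was the shortest distance between log2 signals over the list median in the 2 replicates. The most similar genes were C14B9.3 for lin-35 (0.04), rpb-11 for lin-54 (0.04), dnj-19 for sas-5 (0.06), hsp-16.48 for spd-5 (0.01), K05C4.7 for mdf-2 (0.04), let-526 for mcm-10 (0.04) and T22C1.11 for pcn-1 (0.11). This likeness is over 2 replicate values alone.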

How the data were processed

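Chromatin immunoprecipitation and sequencing data of 2 biological replicates were used as lists of regions deposited by the authors. Per the labels and the deposited notes, each list was made in ce11 from alignments and a control, and the optimal set passed an irreproducible discovery rate threshold. Aligner and peak caller, with versions, and the threshold: not given in the sources used here. Signal and the −log10 q-value per region are the authors' own, and coverage tracks and the control were not analysed here. The depth is unknown, so no interval from counting could be set.

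Coordinates, counted from 1, were joined to WBcel235 gene models of Ensembl release 115, and tRNA names to RefSeq. The sequence is that of the RefSeq WBcel235 assembly. Regions off the 6 nuclear chromosomes were left out (1 optimal peak). A region counted for a gene if its summit lay within 1000 bp of any transcript start. At each optimal peak a replicate takes its strongest region that overlaps by at least 1 bp, and ranks are among nuclear regions. The members and lists were chosen with earlier results of these data known, and no test was run. The genes named are the 7, the coding genes within 1000 bp and RNA genes within 500 bp of their summits, listed genes with an optimal summit, the 3 strongest others per list, and the most similar gene. The peak near cye-1 at 1008 bp, lin-37 and dpl-1 were named after their values were seen. Alternatives were distances of 200, 500 and 2000 bp, the interval midpoint, only the nearest gene, the optimal peaks above the median signal, the outermost start, no peaks near small RNA genes, each replicate alone and other scalings. The assignment of summits to genes was tested on simulated data. Python 3.11.15 and pandas 2.3.3 were used. Sequence is printed for 4 of the 7 peaks, and that of the other 3 is not reported here.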

Additional observations from a re-analysis of the deposited data

How the results depend on the processing

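Replicates and settings changed the count of genes with a peak as follows. Of the 7 genes, 2 kept an optimal summit when the distance was set to 200 bp, 4 when a summit counted only for the coding gene with the nearest start, and 4 (without lin-54, mcm-10 and pcn-1) with the optimal peaks above the median signal. Over the 119 listed genes these counts were 2, 4 and 4, in place of 8. Over all coding genes the count was 140 within 200 bp, 311 within 500 bp and 702 within 2000 bp, in place of 467. It was 344 with the nearest coding gene only and 233 with the peaks above the median signal. With the strongest regions of 1 replicate alone, 6 of the 7 genes had a summit (without pcn-1 in replicate 2 and without lin-54 in replicate 1). Of the listed genes it was 7 in replicate 2 and 8 in replicate 1. The 8 are not those of the optimal set, since lin-54 was lost and cye-1 was gained. cye-1 entered through the region at the tRNA gene C37A2.t1 (rank 30 in replicate 1), whose optimal summit lay 1008 bp away. Without peaks near small RNA genes, with summits within 500 bp, or with the outermost start only, mdf-2 was the gene lost.

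The log2 signal over the pooled median fell to -0.16 at sas-5 and -0.33 at mdf-2 when the region with the nearest summit replaced the strongest, and to -0.33 at mdf-2 within 500 bp. It was 0.06 at spd-5 and 0.25 at mcm-10 with the nearest summit. Divided by the median of the 635 strongest regions instead, it was -0.16 at lin-54, -0.06 at mcm-10 and -0.09 at pcn-1, since those 3 lie below the middle of the optimal set. No paired analysis was possible because there is 1 group. Read depth, which limits weak regions most, is unknown.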

Other observations

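Direct repeats inside the 300 bp windows were looked at after the sequences had been seen. The pcn-1 window holds the 14 bases atttgacgcgcaac a second time 175 bases further on. Its longest exact repeat was as long or longer in 110 of the 635 optimal windows (17.3%), where the median was 9 bases. At spd-5 the longest exact repeat was 27 bases, reached in 34 optimal windows (5.35%), and its copies start 15 bases apart, so they overlap as a short tandem array. The other 5 genes had longest repeats of 8 to 13 bases. Whether such repeats bear on the signal was not tested.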
